A study of Drosophila melanogaster with 16 samples.

Results

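Heads of flies that expressed the long repeat transgene 160R from an insertion on chromosome 3 (Chrom3-160R, 4 libraries) were compared with heads of flies that expressed the short repeat 5R from the same chromosome (Chrom3-5R, 4 libraries). The samples were chosen by their titles alone and are 8 of the 16 libraries of the series. The other 8 are Chrom2-160R and Chrom2-5R, 4 libraries each, which carried the same 2 repeats on chromosome 2 and are used here only to set the chromosome 3 changes against. All flies of the 4 groups were male Drosophila melanogaster, 5-8 days after eclosion, kept on standard medium at 25 °C. Whole heads were frozen in liquid nitrogen, RNA was taken out with Trizol, and strand-specific libraries were made from total RNA without poly(A) selection. The labels give no strain, no number of heads per library and nothing on what drives the transgenes. A 160R line and a 5R line may differ in genetic background, insertion site or collection, and these cannot be told apart from the repeat. No label ties a replicate to its own cross or vial, so the p-values reflect the scatter of these libraries alone, and that scatter could be technical.

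In carriers of the C9ORF72 mutation, a GGGGCC repeat in an intron of that gene is expanded, and the disease is amyotrophic lateral sclerosis or frontotemporal dementia. The transcribed repeat can collect in nuclear RNA foci, and it can be translated without a start codon into dipeptide repeat proteins. Flies that carry such repeats are used to ask which of these products harms neurons. A fly head holds brain, eyes, antennae, fat body, muscle, blood cells and cuticle, so a whole-head library mixes the RNA of all of them. In such bulk samples, fewer cells of a type and less RNA per cell cannot be told apart. The transgene is not among the genes counted and was not analysed here.

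Chrom3-160R libraries held 48118158 to 49792428 counts each, and Chrom3-5R libraries 42854987 to 53615117. Levels are given as CPM, the counts scaled to a common library size, after TMM scaling. Before TMM scaling, 1 count is worth 0.0187 to 0.0233 CPM in these 8 libraries. Mitochondrial genes took 0.712 to 0.828% of the counts in Chrom3-160R, against 0.712 to 0.914% in Chrom3-5R, and ribosomal RNA genes took 0.144 to 0.176% of them in Chrom3-160R, against 0.165 to 0.203% in Chrom3-5R. In a principal component analysis of the 8 libraries, the leading component (44.1% of variance) stood at 0.88, 6.63, 7.38 and 26.17 in Chrom3-160R and at -13.08, -0.35, -15.27 and -12.36 in Chrom3-5R. Chrom3-160R replicate 4 and Chrom3-5R replicate 2 stood away from the rest of their groups on it. Among 17558 genes, 8335 (47.5%) have a span that overlaps another gene. Counts were compared in 41 pairs of genes on opposite strands whose overlap covers at least 80% of the longer gene. They were nearly equal by the median (a ratio of 0.972, range 0.259 to 1.0), so such genes were treated as not to be told apart. Genes that overlap no other gene were preferred, and a named gene whose partner could account for many of its reads is given with that partner and with the partner's count as a multiple of its own.

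With the chromosome 3 insertion, a small share of the genes differed between long and short repeat, and more were lower than higher. A change or call on chromosome 2 or 3 below refers to the insertion, whatever arm the gene lies on. Of 13525 genes tested, 285 (2.11%) were called at an edgeR adjusted p below 0.05, 91 (0.673%) higher in Chrom3-160R and 194 (1.43%) lower. DESeq2 called 531 (209 higher, 322 lower) and limma-voom 434 (157 higher, 277 lower). At an unadjusted p below 0.05 stood 1986 genes (14.7%), the share against which list counts at that p are to be read. Most changes were small. The median change of the genes called was 0.35 on the log2 scale among those higher and -0.42 among those lower. At least 1.5-fold were 96 of them (0.71% of the genes tested), 27 higher and 69 lower. At least 2-fold were 43, 12 higher and 31 lower. Among the 6066 genes that overlap no other gene, 144 (2.37%) were called, and among the 7459 that overlap another, 141 (1.89%). The 4 libraries of one group lay wholly above or below the 4 of the other in 276 of the 285 genes called, against 1551 (11.5%) of all genes tested, 771 with Chrom3-160R above (5.7%) and 780 with it below (5.77%). Protein-coding genes were called higher in 80 cases and lower in 173, and non-coding RNA genes higher in 8 and lower in 14. The count of calls depended on single libraries. It was 176 without Chrom3-5R replicate 1, 167 without Chrom3-5R replicate 3, 181 without Chrom3-160R replicate 2 and 170 without Chrom3-160R replicate 3.

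**Figure D1:**
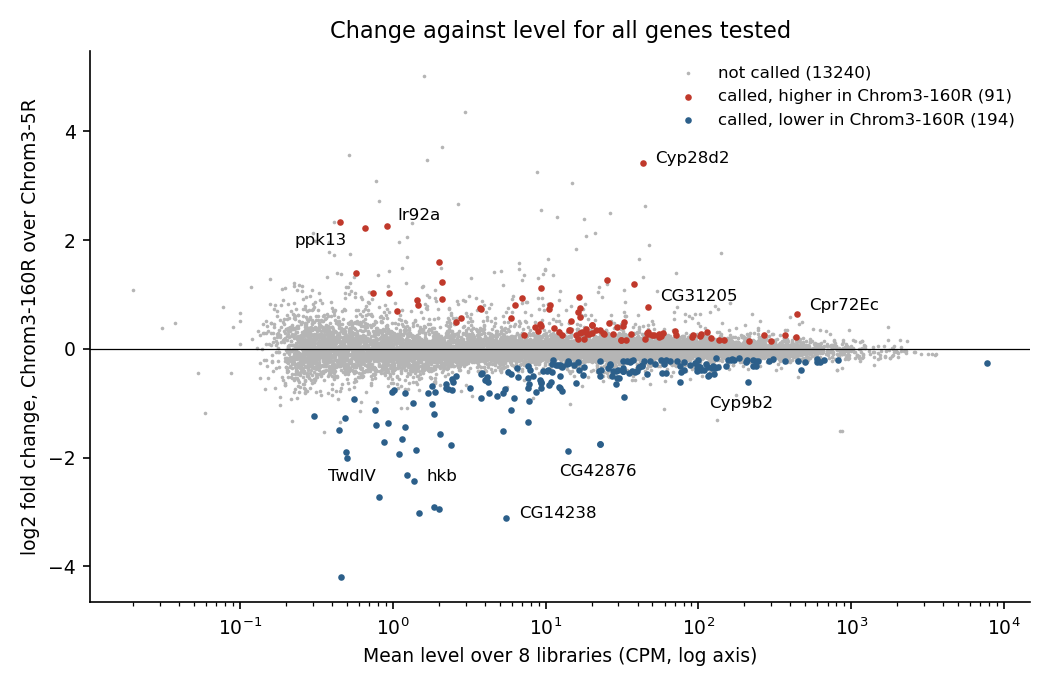
Each point is 1 of the 13525 genes tested, with its mean level over the 8 chromosome 3 libraries (CPM, log axis) on the x axis and its log2 fold change, Chrom3-160R over Chrom3-5R, on the y axis. Red points (91) were called higher in Chrom3-160R and blue points (194) lower, and Cyp28d2 stands apart as an abundant gene with a log2 change of 3.42.

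The largest rise was in Cyp28d2 (2L, 5207267 to 5209345 on BDGP6), a cytochrome P450 gene. P450 enzymes oxidise hormones, fatty acids, plant toxins and insecticides, and genes of the Cyp28 family were described in the cactus-feeding species Drosophila mettleri as induced by plant alkaloids. Cyp28d2 stood at 81.8, 78.2, 74.1 and 82.3 CPM in Chrom3-160R, against 6.81, 6.75, 8.95 and 7.05 CPM in Chrom3-5R. Every Chrom3-160R library was far above every Chrom3-5R library, and the spread within each group was narrow. The change was 3.42 ± 0.08 on the log2 scale (SE, edgeR adjusted p = 5.2e-15), a 10.7-fold rise. In the chromosome 2 line the same gene averaged 6.35 CPM in Chrom2-160R and 7.69 CPM in Chrom2-5R (log2 change -0.28 ± 0.09), so that Chrom3-160R alone was high among the 4 groups. The change differed between the lines by 3.7 ± 0.11 (edgeR adjusted p = 1.2e-12).

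No gene next to Cyp28d2 was called higher. Its neighbour and relative Cyp28d1 (2L, 5210460 to 5212445) had 198, 164, 149 and 160 CPM in Chrom3-160R, against 225, 269, 294 and 239 CPM in Chrom3-5R. All Chrom3-160R values were below all Chrom3-5R values, and the change was -0.61 ± 0.11 (edgeR adjusted p = 0.008). The call ended when Chrom3-5R replicate 2 and Chrom3-160R replicate 4 were both left out (edgeR adjusted p = 0.0652). It also ended when the replicate number was fitted as a block within each line (edgeR adjusted p = 0.0866). On the other side of Cyp28d2 lies a small RNA gene inside Msp300, which has 204.68 times its counts, and it was lower by -0.63 ± 0.1 (edgeR adjusted p = 0.002). CG7742 and CG14034, the next genes beyond Cyp28d1, had changes of -0.43 and 0.49 and were not called.

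Over the P450 family, 2 of 81 genes tested rose and 9 fell, that is 13.6% called against 2.11% of all genes, and the median change was -0.04. The other rise was Cyp4p2 (1.12 ± 0.1, edgeR adjusted p = 2e-06), which lies within hig, a gene with 39.11 times its counts. It had 14.3, 14, 12.6 and 10.2 CPM in Chrom3-160R, against 6.22, 5.07, 6.19 and 5.97 CPM in Chrom3-5R, with no overlap of the groups. Among the falls, Cyp9b2 had 110, 98.8, 87.2 and 99.5 CPM in Chrom3-160R, against 136, 146, 140 and 127 CPM in Chrom3-5R, and changed by -0.48 ± 0.07 (edgeR adjusted p = 0.00057). Cyp6a14 had 9.11, 8.07, 7.9 and 7.46 CPM in Chrom3-160R, against 13.1, 12.6, 13.1 and 13.1 CPM in Chrom3-5R, a change of -0.67 ± 0.07 (edgeR adjusted p = 1.7e-05). The libraries of both groups kept apart in both genes. The steepest fall of the family was in Cyp9c1 (-1.75 ± 0.09, edgeR adjusted p = 1.1e-09), with 11.3, 9.99, 9.3 and 11.0 CPM in Chrom3-160R, against 37.4, 30.6, 38.7 and 32.9 CPM in Chrom3-5R. This value is shared with the antisense gene CR43787 of nearly the same span (-1.74), and CG13594, which overlaps both, has 5.41 times the counts of Cyp9c1. The other falls were Cyp6t3 (-0.9, inside CG8858 with 22.78 times its counts), the pseudogene Cyp9f3Psi (-0.48), Cyp4e2 (-0.35), Cyp4g15 (-0.24) and Cyp6a13 (-0.22).

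In other families that process foreign compounds, hormones and lipids, more of the called genes were lower than higher. The same held for all 285 genes called, of which 194 were lower. The shares called in these families are to be read against 2.11% of all genes. Glutathione S-transferases, which couple glutathione to toxic compounds, fell in 3 of 33 (9.09%; median change -0.08). GstE5 had 7.91, 7.13, 7.25 and 7.36 CPM in Chrom3-160R, against 11.2, 11.9, 10.4 and 11.6 CPM in Chrom3-5R, a change of -0.61 ± 0.08 (edgeR adjusted p = 0.0003). GstE9 changed by -0.32 ± 0.06 and GstD3 by -0.3 ± 0.07 (edgeR adjusted p = 0.0073 and 0.041). UDP-glucuronosyltransferases, which attach sugars to such compounds, fell in 4 of 30 and rose in 1 (16.7%; median -0.02). CG30438, now named Ugt50B3, had 34.9, 31.2, 32.5 and 31.8 CPM in Chrom3-160R, against 45.2, 43.5, 44.5 and 42.5 CPM in Chrom3-5R, a change of -0.43 ± 0.06 (edgeR adjusted p = 0.00096). Ugt37b1 (-0.81 ± 0.2), CG17322 (-0.71 ± 0.17; CG17597, which overlaps it, has 2.03 times its counts) and Ugt35a (-0.26 ± 0.06) were the other falls, and CG17324, now Ugt36F1, was the rise (0.35 ± 0.06, edgeR adjusted p = 0.0051). The GstE9 call ended without both Chrom3-5R replicate 2 and Chrom3-160R replicate 4 (edgeR adjusted p = 0.0501). The GstD3 call ended without any 1 of the 8 libraries (edgeR adjusted p 0.0549 to 0.127), Ugt35a without any except Chrom3-160R replicate 3 (0.0523 to 0.0854), CG17322 without any except Chrom3-5R replicate 4 and Chrom3-160R replicate 1 (0.0658 to 0.127), and Ugt37b1 without Chrom3-5R replicate 2 or 3 or Chrom3-160R replicate 2, 3 or 4 (0.0904 to 0.155).

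Sterol-binding proteins of the Npc2 family fell in 2 of 5 tested (40%, against 2.11% of all genes). Npc2g had 117, 108, 97.9 and 97.9 CPM in Chrom3-160R, against 137, 162, 145 and 140 CPM in Chrom3-5R, a change of -0.47 ± 0.06 (edgeR adjusted p = 0.00029). Its neighbour Npc2h had 88.1, 83.9, 69.9 and 75.6 CPM in Chrom3-160R, against 98.1, 98.5, 98.2 and 92.9 CPM in Chrom3-5R, a change of -0.29 ± 0.06 (edgeR adjusted p = 0.022). Both genes were lower in every Chrom3-160R library than in any Chrom3-5R library. Among 14 juvenile hormone genes 2 were called (14.3%). Jheh1 (-0.33 ± 0.07, edgeR adjusted p = 0.013) and Jheh2 (-0.21 ± 0.05, edgeR adjusted p = 0.045), epoxide hydrolases that break the hormone down, were lower and none was higher. The Npc2h call ended without Chrom3-5R replicate 1 or 3 or Chrom3-160R replicate 3 or 4 (edgeR adjusted p 0.0617 to 0.0742), the Jheh1 call without Chrom3-160R replicate 3 (0.053) and the Jheh2 call without any 1 library except Chrom3-160R replicates 1 and 2 (0.064 to 0.144). Neprilysin-like genes, whose members include secreted and membrane peptidases, fell in 4 of 25, that is 16% (CG14528 -0.39, CG4723 -0.25, CG4725 -0.22 and CG14526 -0.2). All 4 lie within CG33203 or CG7029, which have 4.25 to 26.38 times their counts, and every call ended without Chrom3-5R replicate 1 or 4 or Chrom3-160R replicate 3. The CG14526 call also ended without Chrom3-5R replicate 2 or 3 or Chrom3-160R replicate 1 or 4, and those of CG4723 and CG4725 without Chrom3-5R replicate 3 or Chrom3-160R replicate 2 or 4 (edgeR adjusted p 0.0521 to 0.155 over all of these).

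Beside Cyp28d2, the largest rises among genes that overlap no other and average at least 1 CPM in a group were in genes of varied kind. Ir92a, an ionotropic receptor of the antenna reported to sense ammonia and amines, had 1.89, 1.32, 1.53 and 1.31 CPM in Chrom3-160R, against 0.525, 0.341, 0.274 and 0.126 CPM in Chrom3-5R. ppk13, of the degenerin and epithelial sodium channel family, had 1.03, 1.11, 1.17 and 1.05 CPM in Chrom3-160R, against 0.323, 0.17, 0.297 and 0.144 CPM in Chrom3-5R. Obp99a, an odorant-binding protein, had 2.79, 2.18, 2.23 and 4.84 CPM in Chrom3-160R, against 0.869, 1.04, 1.03 and 1.05 CPM in Chrom3-5R. In all 3 the groups lay apart, with Chrom3-160R replicate 4 the highest for Obp99a. The changes were 2.26 ± 0.36 for Ir92a (edgeR adjusted p = 0.002), 2.22 ± 0.22 for ppk13 (edgeR adjusted p = 1.6e-05) and 1.59 ± 0.31 for Obp99a (edgeR adjusted p = 0.011). These 3 genes are low in whole heads, so counting error weighs more on them than on Cyp28d2.

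CG11313, a predicted serine protease, stood at 59.2, 55.6, 52.2 and 45.0 CPM in Chrom3-160R, against 23.0, 28.8, 16.5 and 24.4 CPM in Chrom3-5R (1.19 ± 0.16, edgeR adjusted p = 0.00096). In the chromosome 2 line it averaged 0.118 CPM in Chrom2-160R and 0.253 CPM in Chrom2-5R, so both chromosome 3 groups were far above both chromosome 2 groups. CG31205 stood at 64.4, 60.2, 59.5 and 52.1 CPM in Chrom3-160R, against 34.8, 40.3, 32.6 and 30.8 CPM in Chrom3-5R (0.77 ± 0.09, edgeR adjusted p = 5.5e-05). It went the other way on chromosome 2, with 12.6 CPM in Chrom2-160R and 24.6 CPM in Chrom2-5R (-0.98 ± 0.1). Dhc98D, an axonemal dynein heavy chain, had 21.2, 19.6, 22.1 and 22.2 CPM in Chrom3-160R, against 12.9, 12.4, 11.4 and 13.4 CPM in Chrom3-5R (0.76 ± 0.11, edgeR adjusted p = 0.00067). OdsH, a homeobox gene on the X chromosome known for its part in male sterility between species, had 4.66, 4.34, 4.82 and 5.0 CPM in Chrom3-160R, against 2.99, 3.11, 2.47 and 2.78 CPM in Chrom3-5R (0.73 ± 0.09, edgeR adjusted p = 0.00011). None of these 4 genes had overlapping groups. CG6280 rose by 1.03 ± 0.18 (edgeR adjusted p = 0.0035).

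The calls of the remaining large rises were lost when single libraries were left out. Cpr72Ec, a cuticle protein of the corneal lens, had 426, 643, 611 and 466 CPM in Chrom3-160R, against 404, 307, 291 and 377 CPM in Chrom3-5R, a change of 0.64 ± 0.13 (edgeR adjusted p = 0.017). The lowest Chrom3-160R value was close to the highest Chrom3-5R value. The call ended without Chrom3-5R replicate 2 or 3 or Chrom3-160R replicate 2 or 3 (edgeR adjusted p 0.0523 to 0.0739). It also ended in a fit of the 8 chromosome 3 libraries alone (edgeR adjusted p = 0.116) and with the replicate number as a block within each line (0.181). Over all alternatives the change of Cpr72Ec was 0.54 to 0.73. amd, which acts in the dopa chemistry of cuticle, changed by 0.73 ± 0.17 (0.6 to 0.77 over the alternatives) and the non-coding RNA CG32368 by 0.91 ± 0.22 (0.62 to 1.05). The amd call ended without any 1 library except Chrom3-160R replicate 1 (edgeR adjusted p 0.0592 to 0.148), and that of CG32368 without any except Chrom3-160R replicates 1 and 4 (0.0657 to 0.156). CG12863 changed by 0.75 ± 0.16 (0.57 to 0.83 over the alternatives) and was lost without Chrom3-5R replicate 1 or 2 (edgeR adjusted p 0.0526 to 0.0568). CG2121 changed by 0.49 ± 0.11 (0.41 to 0.54) and was lost without Chrom3-5R replicate 1, 3 or 4 or Chrom3-160R replicate 2 or 4 (edgeR adjusted p 0.0636 to 0.0897).

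**Figure D2:**
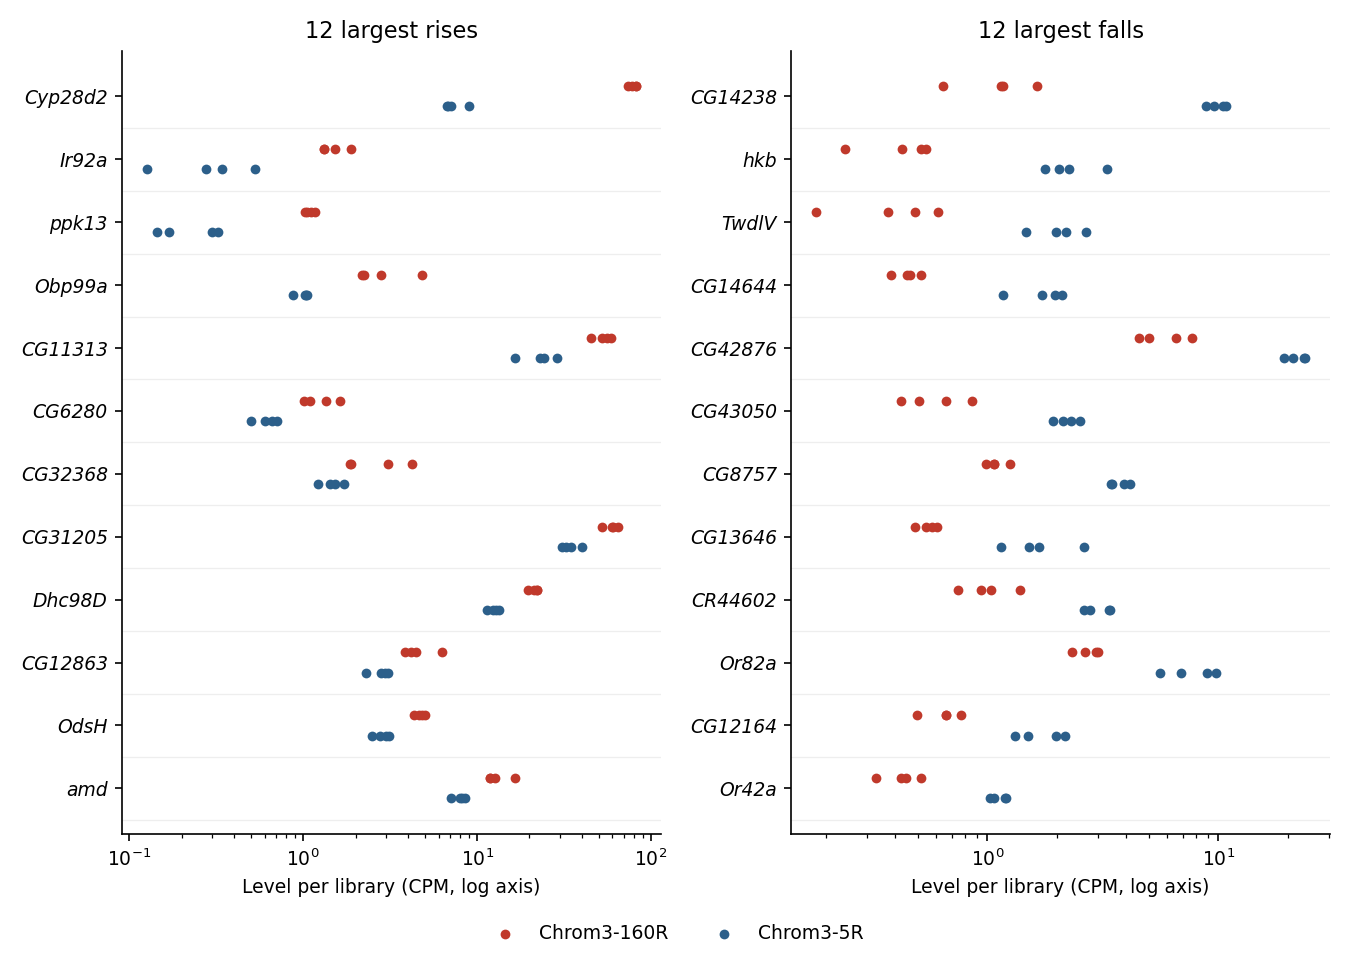
Level in each library (CPM, log axis) of the 12 largest rises and 12 largest falls among called genes that overlap no other gene, whose groups lie apart and whose mean reaches 1 CPM in a group, with Chrom3-160R in red above Chrom3-5R in blue. Cyp28d2 stands at 74.1 to 82.3 CPM in Chrom3-160R and 6.75 to 8.95 CPM in Chrom3-5R, and CG14238 at 0.645 to 1.64 CPM in Chrom3-160R and 8.87 to 10.8 CPM in Chrom3-5R.

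The largest fall by the same rule was in CG14238 (3R, 26458249 to 26460981). It had 1.15, 1.64, 1.17 and 0.645 CPM in Chrom3-160R, against 8.87, 10.5, 10.8 and 9.61 CPM in Chrom3-5R, and changed by -3.1 ± 0.18 (edgeR adjusted p = 1.5e-08). The groups lay far apart, and the chromosome 2 groups were both near the Chrom3-160R level, with a change of 0.29 between them. Its neighbour CG14237 (3R, 26456877 to 26457242) was lower too, with 0.191, 0.331, 0.141 and 0.161 CPM in Chrom3-160R, against 0.727, 0.745, 0.799 and 0.847 CPM in Chrom3-5R (-1.9 ± 0.31, edgeR adjusted p = 0.002). Of the 7 genes from CG5447 to plum, a stretch drawn around them, these were the 2 that were called. The clock neuropeptide gene Pdf, which lies beside CG14237, changed by -0.08 ± 0.07 and was not called.

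A second stretch of 3R held 5 of the lower genes within a short distance. CG14644 (4251894 to 4253043), the Tweedle cuticle protein gene TwdlV (4254708 to 4255833) and the odorant receptor gene Or82a (4256972 to 4258444), whose receptor is known for its response to geranyl acetate, follow one another. CG14644 had 0.516, 0.448, 0.462 and 0.383 CPM in Chrom3-160R, against 1.96, 1.17, 2.1 and 1.73 CPM in Chrom3-5R (-1.93 ± 0.2, edgeR adjusted p = 1.7e-05). TwdlV had 0.611, 0.37, 0.181 and 0.484 CPM in Chrom3-160R, against 2.2, 1.47, 2.67 and 1.98 CPM in Chrom3-5R (-2.32 ± 0.29, edgeR adjusted p = 0.00015). Or82a had 2.94, 2.65, 3.01 and 2.32 CPM in Chrom3-160R, against 8.89, 5.58, 9.73 and 6.9 CPM in Chrom3-5R (-1.51 ± 0.2, edgeR adjusted p = 0.00044). In each of the 3 genes the Chrom3-160R libraries were all below the Chrom3-5R libraries, of which replicate 2 was the lowest. On the flanks TwdlG changed by -0.39 ± 0.1 and CG1092 by -0.44 ± 0.07 (edgeR adjusted p = 0.043 and 0.0013), and the TwdlG call ended without any 1 library except Chrom3-5R replicate 2 and Chrom3-160R replicate 1 (0.0691 to 0.169). TwdlU, another Tweedle gene of the cluster, changed by -0.01 ± 0.18 and was not called.

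Farther along the same arm, hkb (4345015 to 4346646), the zinc finger gene huckebein known for patterning the ends of the embryo, had 0.516, 0.429, 0.543 and 0.242 CPM in Chrom3-160R, against 2.26, 1.77, 3.29 and 2.04 CPM in Chrom3-5R. The groups did not overlap, and the change was -2.42 ± 0.23 (edgeR adjusted p = 1e-05). Of 27 genes from CG14641 to hkb, 26 were tested, 7 were lower and 0 higher by edgeR. The stretch was bounded with the called genes known, so the count is no test of clustering. Of all genes tested, 1.43% were lower. The 14 tested genes between CG1092 and hkb had changes of -0.23 to 0.21 and none was called. Gel, the gelsolin gene at the start of the stretch, changed by -0.25 ± 0.06 (edgeR adjusted p = 0.042), and its call ended without any 1 library except Chrom3-160R replicate 1 (0.0657 to 0.142). For CG14644, TwdlV, Or82a and hkb both chromosome 2 groups stood near the Chrom3-160R level (Or82a averaged 2.58 CPM in Chrom2-160R and 2.47 CPM in Chrom2-5R, and hkb 0.445 CPM in Chrom2-160R and 0.611 CPM in Chrom2-5R).

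**Figure D3:**
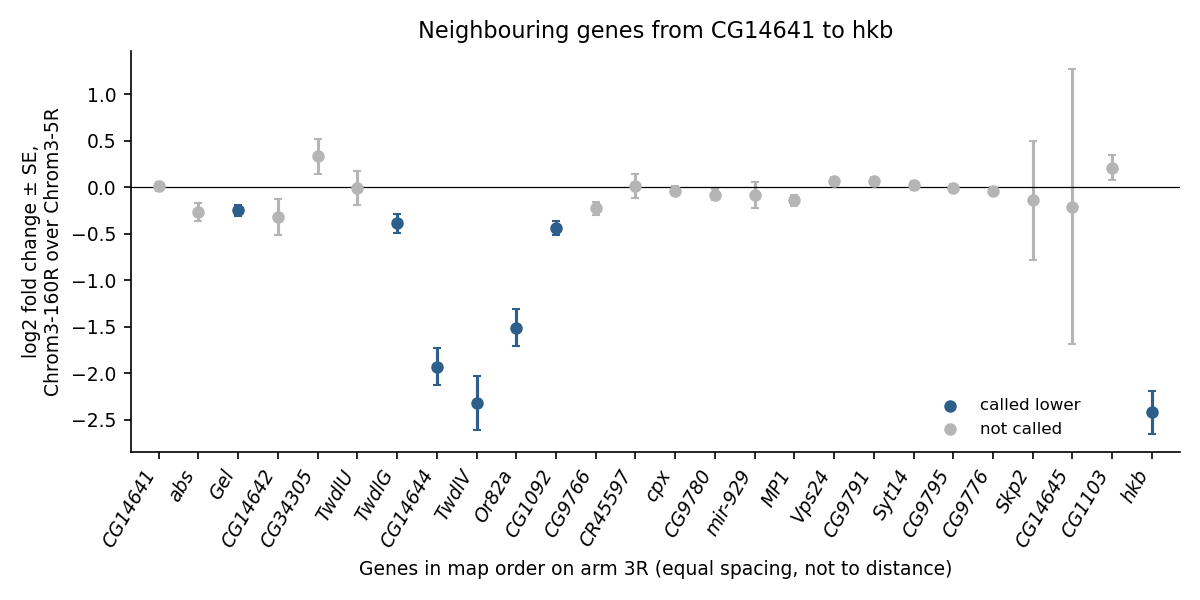
Log2 fold change ± SE, Chrom3-160R over Chrom3-5R, of the 26 tested genes from CG14641 to hkb on arm 3R, in map order with equal spacing; blue points were called lower and grey points were not called. CG14644, TwdlV and Or82a lie side by side at -1.93, -2.32 and -1.51, and hkb stands at -2.42 beyond 14 genes that were not called.

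The other large falls were scattered. CG42876 (2L, 15810571 to 15812141) had 7.68, 4.52, 5.0 and 6.57 CPM in Chrom3-160R, against 19.3, 23.4, 23.8 and 21.1 CPM in Chrom3-5R (-1.88 ± 0.13, edgeR adjusted p = 2.1e-07). The non-coding RNA gene just before it, CR44602 (2L, 15807181 to 15810319), had 1.38, 0.935, 1.04 and 0.746 CPM in Chrom3-160R, against 3.35, 2.79, 3.38 and 2.63 CPM in Chrom3-5R (-1.56 ± 0.22, edgeR adjusted p = 0.00049). In both neighbours the groups lay apart. CG8757 averaged 1.09 ± 0.11 CPM in Chrom3-160R and 3.73 ± 0.348 CPM in Chrom3-5R (SD, n = 4 each; -1.77 ± 0.2, edgeR adjusted p = 4.6e-05). It was the opposite on chromosome 2, where the change was 0.91 ± 0.23. CG43050 changed by -1.85 ± 0.2, CG13646 by -1.65 ± 0.22 and CG12164 by -1.43 ± 0.24 (edgeR adjusted p = 3.2e-05, 0.00029 and 0.0027).

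Among abundant genes that fell, changes were moderate and the groups tight. CG6426, a lysozyme of the invertebrate type, had 95.5, 99.7, 95.7 and 87.2 CPM in Chrom3-160R, against 122, 128, 116 and 126 CPM in Chrom3-5R (-0.38 ± 0.05, edgeR adjusted p = 0.0003). CG42390 averaged 107 ± 5.96 CPM in Chrom3-160R and 137 ± 9.51 CPM in Chrom3-5R (SD, n = 4 each; -0.36 ± 0.07, edgeR adjusted p = 0.0053). EDTP, a phosphatase of membrane phosphoinositides that acts on autophagy, had 91.7, 98.9, 97.6 and 92.9 CPM in Chrom3-160R, against 131, 128, 146 and 134 CPM in Chrom3-5R (-0.5 ± 0.04, edgeR adjusted p = 2.5e-06). It was named after its values were seen, and it overlaps CG18467, which has 0.34 times its counts. None of these 3 had overlapping groups, and EDTP changed by 0.08 ± 0.04 on chromosome 2.

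Chromosome 2 levels were then set beside all 285 called genes, to see which chromosome 3 group they lay nearer. For each gene the midpoint of the Chrom3-160R and Chrom3-5R means was taken on a log scale. Of the 194 genes lower in Chrom3-160R, 111 had both chromosome 2 groups on the Chrom3-160R side of that midpoint, 19 had both on the Chrom3-5R side and 64 had 1 on each side. Of the 31 that were at least 2-fold lower, 21 had both on the Chrom3-160R side and 2 both on the Chrom3-5R side. Of the 91 genes higher in Chrom3-160R, 30 had both on the Chrom3-160R side, 30 both on the Chrom3-5R side and 31 had 1 on each. Of the 12 that were at least 2-fold higher, 2 had both on the Chrom3-160R side, 6 both on the Chrom3-5R side and 4 had 1 on each. The sides were not taken for genes that were not called, so these counts have no baseline over all genes. Whether the line, the libraries' depth or the repeat lies behind these positions was not tested.

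The 160R change itself was compared between the insertion lines by a contrast in the same fit. With the chromosome 2 insertion, 3535 genes (26.1%) were called, 1735 higher and 1800 lower in Chrom2-160R. The chromosome 2 libraries held 11452337 to 30496479 counts. The change differed between the lines in 983 genes (7.27% of those tested), with the chromosome 3 change above in 3.9% and below in 3.36%. Among them were 121 of the 285 genes called with the chromosome 3 insertion. The chromosome 3 change by which the 285 were chosen is part of the contrast, so their share is no test. Of the 285, 111 were called with the same sign on chromosome 2 and 24 with the opposite sign. ppk13 rose in both lines, with 1.1 CPM in Chrom2-160R and 0.172 CPM in Chrom2-5R (2.69 ± 0.32 on chromosome 2; difference between the lines, edgeR adjusted p = 0.61). CG42876 fell in both, by -1.13 ± 0.18 on chromosome 2, less than on chromosome 3 (difference, edgeR adjusted p = 0.048). Ir92a went in opposite directions, at 0.407 CPM in Chrom2-160R and 1.1 CPM in Chrom2-5R (-1.5 ± 0.45; difference, edgeR adjusted p = 0.00092). Cyp9b2, Jheh1, Npc2h, GstE9 and Rfabg fell on chromosome 2 by more than on chromosome 3 (-0.91, -1.0, -0.77, -0.79 and -0.66; edgeR adjusted p of the difference 0.013, 0.00069, 0.0041, 0.0035 and 0.0097). Without Chrom3-5R replicate 1, Chrom3-160R replicate 1 or Chrom3-160R replicate 2, the count of genes with a difference between the lines was 597, 636 or 625.

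**Figure D4:**
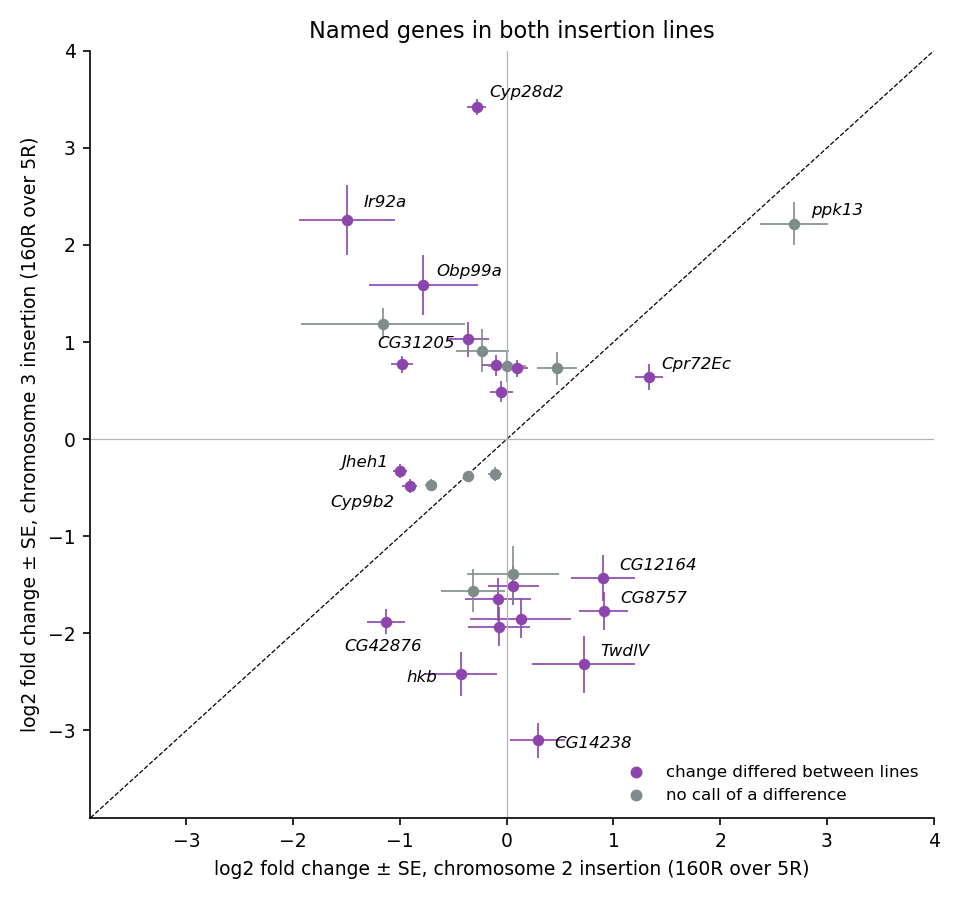
Log2 fold change ± SE of 160R over 5R for the 31 genes named by size or level, with the chromosome 2 insertion on the x axis and the chromosome 3 insertion on the y axis; the dashed line marks equal changes. In 21 of the 31 (purple) the change differed between the lines, among them Cyp28d2 and CG14238, while ppk13 lies near the dashed line. Over all genes tested the share was 7.27%, and the 31 were chosen by their chromosome 3 change, which is part of the line difference.

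Chemosensory and cuticle genes gave several of the larger changes, with calls in both directions. Odorant-binding proteins rose in 2 of 37 and fell in 2 (10.8%; median -0.05). Besides Obp99a, the rise was in Obp57d (0.44 ± 0.08), known with Obp57e for host plant choice in Drosophila sechellia, but its counts are those of Cpr57A, a cuticle protein gene of identical span. Obp57a had 20.3, 20.2, 22.3 and 17.3 CPM in Chrom3-160R, against 25.7, 27.0, 25.6 and 26.5 CPM in Chrom3-5R (-0.39 ± 0.07, edgeR adjusted p = 0.0077). Obp93a changed by -1.71 ± 0.22 but lies in CG5793, which has 55.83 times its counts. Odorant receptors fell in 2 of 33 and rose in 0 by edgeR (6.06%; median -0.02). Besides Or82a this was Or42a, a receptor for fruit esters, with 0.516, 0.331, 0.422 and 0.443 CPM in Chrom3-160R, against 1.03, 1.19, 1.07 and 1.21 CPM in Chrom3-5R (-1.39 ± 0.29, edgeR adjusted p = 0.014). The Or42a call ended without Chrom3-160R replicate 2 or 3 (edgeR adjusted p 0.0526 to 0.0688).

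Ionotropic receptors, to which Ir92a belongs, rose in 1 of 39 and fell in 1 (5.13%; median -0.05). The fall was Ir41a, an antennal receptor for amines, with 11.6, 8.88, 8.98 and 8.16 CPM in Chrom3-160R, against 16.1, 16.2, 16.5 and 15.6 CPM in Chrom3-5R (-0.78 ± 0.13, edgeR adjusted p = 0.0036). Its 2 groups were apart and Chrom3-5R was the tighter. Gustatory receptors gave 0 calls of 31 by edgeR, DESeq2 and limma, with 3 higher and 1 lower at an unadjusted p below 0.05. Cuticle proteins rose in 3 of 76 and fell in 2 (6.58%), and their median change was 0.26. At an unadjusted p below 0.05, 18 were higher and 2 lower (26.3%, against 14.7% of all genes), and 54 of the 76 had a change above 0. The third rise was Cpr67B (0.28 ± 0.07, edgeR adjusted p = 0.049), which ended without any 1 library except Chrom3-160R replicate 1 (0.0965 to 0.181) and with RLE size factors or the stricter filter. The cuticle list's centred log2 level was 0.01, 0.07, 0.0 and 0.1 in Chrom3-160R, against -0.12, 0.08, -0.12 and -0.16 in Chrom3-5R, so Chrom3-5R replicate 2 lay among the Chrom3-160R libraries. Osi8, 1 of 14 Osiris genes tested, was lower (-1.12 ± 0.25), and its call ended without Chrom3-5R replicate 1 or 3 or Chrom3-160R replicate 2 or 3 (edgeR adjusted p 0.0699 to 0.11).

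**Figure D5:**
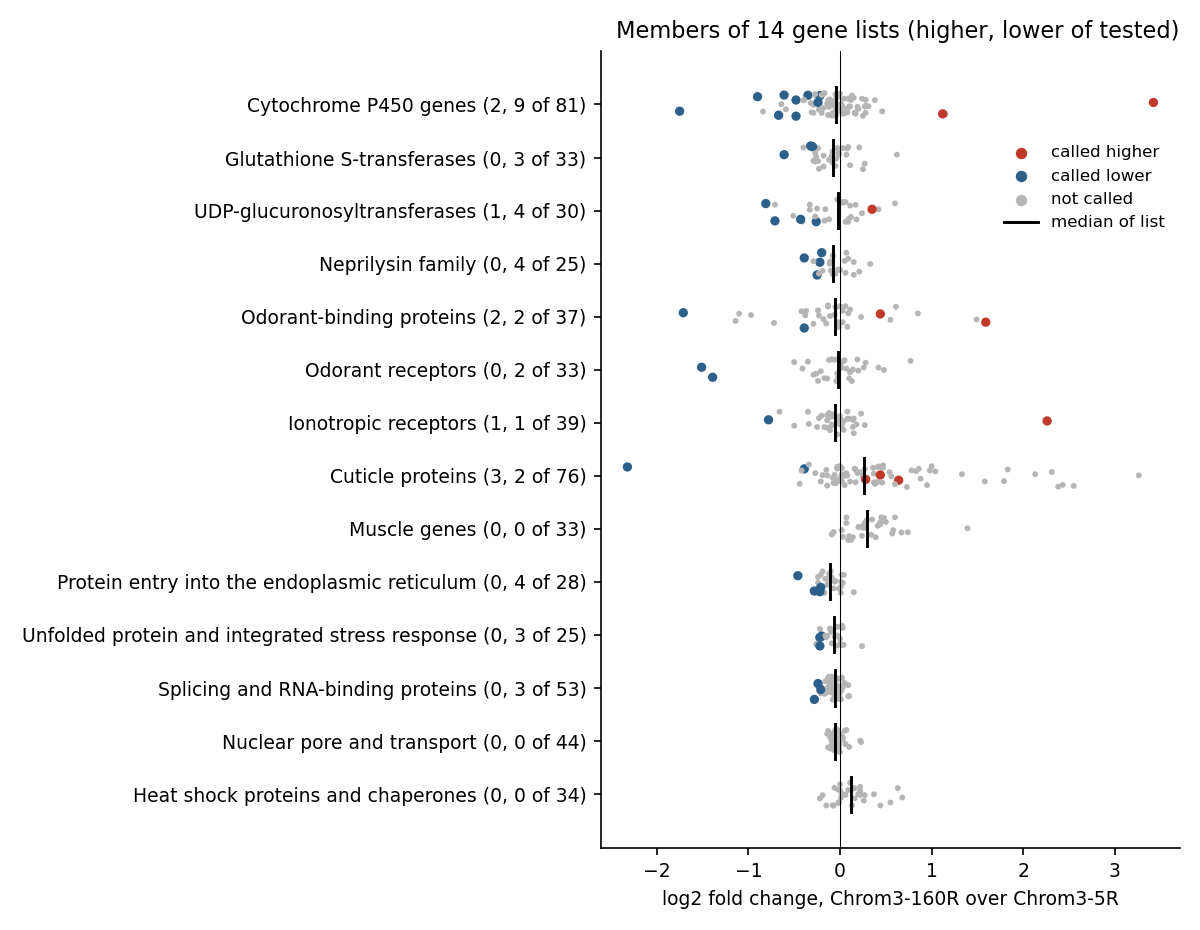
Log2 fold change, Chrom3-160R over Chrom3-5R, of every tested member of 14 gene lists, 1 point a gene; red points were called higher, blue points lower, and the black bar is the list's median. P450 genes span -1.75 to 3.42 around a median of -0.04, the muscle list has its median at 0.29 with no member called, and the nuclear pore and RNA-binding lists lie close to 0.

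Some genes of protein entry into the endoplasmic reticulum and of folding inside it fell by small amounts. The entry list was put together after the values were seen. It fell in 4 of 28 and rose in 0 by edgeR (14.3%; median -0.11), and at an unadjusted p below 0.05 it had 12 lower and 0 higher. Spase25, a subunit of the signal peptidase that trims secreted proteins, had 42.7, 35.0, 40.2 and 37.7 CPM in Chrom3-160R, against 52.8, 55.8, 54.2 and 50.9 CPM in Chrom3-5R (-0.46 ± 0.06, edgeR adjusted p = 0.0003). Its groups were well apart, and the smaller CG33235 that overlaps it has 0.01 times its counts. The other falls were 3 of 7 oligosaccharyltransferase subunits, which attach sugar chains to new proteins, namely l(2)k12914, now Dad1 (-0.28 ± 0.06), OstDelta (-0.22 ± 0.05) and Ost48 (-0.21 ± 0.05). All 8 genes of the signal recognition particle and its receptor (median 0.01, 6 above 0) and all 10 of the translocon (median -0.13, 10 below 0) were left uncalled. The list's centred log2 level was 0.02, -0.08, -0.13 and -0.01 in Chrom3-160R, against 0.05, 0.1, 0.05 and 0.02 in Chrom3-5R, with the highest Chrom3-160R value equal to the lowest Chrom3-5R value.

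In the list for the unfolded protein response and the integrated stress response, 3 of 25 fell and 0 rose by edgeR (12%; median -0.07), with 7 lower and 1 higher at an unadjusted p below 0.05. The 3 were folding proteins and not stress sensors. ERp60 and Pdi, protein disulfide isomerases, changed by -0.22 ± 0.05 each (edgeR adjusted p = 0.016 and 0.043), and Crc, the calreticulin gene, by -0.2 ± 0.05 (edgeR adjusted p = 0.042). ERp60 had 239, 213, 204 and 221 CPM in Chrom3-160R, against 249, 269, 261 and 243 CPM in Chrom3-5R. The groups of ERp60 lay apart by a small margin, and those of Crc overlapped. CG2918, now Grp170, and Fkbp14, other folding proteins noted after their values were seen, changed by -0.21 ± 0.05 and -0.22 ± 0.05. Apart from Spase25, all 8 of these calls ended without Chrom3-160R replicate 3, and all but Ost48 without Chrom3-160R replicate 2. Chrom3-160R replicate 4 also ended those of Crc, CG2918, OstDelta, l(2)k12914 and Ost48. Chrom3-5R replicate 1 ended all but ERp60, replicate 2 those of Pdi, Crc, l(2)k12914 and Ost48, replicate 3 all but CG2918 and l(2)k12914, and replicate 4 those of l(2)k12914 and Ost48. The edgeR adjusted p was 0.0514 to 0.139 over these.

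Among neuropeptides and hormones, 3 of 42 fell and 0 rose by edgeR (7.14%; median -0.07). CCHa2, a nutrient-responsive peptide hormone of gut and fat body, had 63.9, 58.1, 62.3 and 55.3 CPM in Chrom3-160R, against 90.6, 102, 79.5 and 91.1 CPM in Chrom3-5R (-0.6 ± 0.09, edgeR adjusted p = 0.0016). ITP, the ion transport peptide, had 108, 95.7, 105 and 103 CPM in Chrom3-160R, against 136, 127, 130 and 124 CPM in Chrom3-5R (-0.33 ± 0.06, edgeR adjusted p = 0.005; CG4622, which overlaps it, has 0.72 times its counts). Dh31, the diuretic hormone of clock and gut cells, had 55.4, 53.3, 54.6 and 50.5 CPM in Chrom3-160R, against 67.2, 61.4, 64.3 and 67.2 CPM in Chrom3-5R (-0.28 ± 0.04, edgeR adjusted p = 0.0013). All 3 had groups that lay apart. The tachykinin receptor TkR99D, noted after its values were seen, changed by -0.35 ± 0.04 (edgeR adjusted p = 0.00014). On chromosome 2 the changes of CCHa2, ITP, Dh31 and TkR99D were -0.13, 0.0, -0.08 and -0.11, and for CCHa2, ITP and TkR99D they differed from those on chromosome 3 (edgeR adjusted p = 0.04, 0.029 and 0.027).

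Synaptic and neuronal genes fell in 1 of 50 and rose in 0 by edgeR (2.0%; median 0.01), close to the 2.11% of all genes. The fall was nAChRalpha6, a nicotinic acetylcholine receptor subunit, with 413, 400, 421 and 388 CPM in Chrom3-160R, against 566, 459, 561 and 533 CPM in Chrom3-5R (-0.39 ± 0.08, edgeR adjusted p = 0.013). Its groups lay apart, and the call ended without Chrom3-5R replicate 1 or 3 (edgeR adjusted p 0.0538 to 0.0544). The 18 genes of the release machinery (median 0.03) and the 15 of transmitter synthesis and transport (median 0.08) held no call. The 17 channels and receptors, to which nAChRalpha6 belongs, had a median of -0.13, with 15 below 0. At an unadjusted p below 0.05, 8 of them were lower and 1 higher (52.9%), and DESeq2 called 4 lower and 1 higher. Circadian genes gave 0 calls of 21 by edgeR and limma and 1 lower by DESeq2, with 3 higher and 1 lower at an unadjusted p below 0.05. Activity-regulated genes gave 0 of 13 by all 3 tools, with 2 higher at that unadjusted p.

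Classes often examined in C9ORF72 models gave 3 calls or none by edgeR. Of 53 splicing and RNA-binding proteins, 3 fell and 0 rose by edgeR (5.66%, against 2.11% of all genes; median -0.06), all 3 among hnRNP and related proteins. At an unadjusted p below 0.05, 14 were lower and 1 higher (28.3%), and 40 of the 53 had a change below 0. Syp, an hnRNP of neurons, changed by -0.21 ± 0.04, bru-3, of the CELF family, by -0.24 ± 0.06, and Imp, which binds mRNAs in neuroblasts and axons, by -0.28 ± 0.06 (edgeR adjusted p = 0.02, 0.043 and 0.017). Syp had 784, 737, 786 and 740 CPM in Chrom3-160R, against 931, 855, 890 and 838 CPM in Chrom3-5R, with the groups apart. The Syp call ended without Chrom3-5R replicate 1 or 3 or Chrom3-160R replicate 2 or 4, the Imp call without Chrom3-5R replicate 1 or Chrom3-160R replicate 2 or 4, and the bru-3 call without any 1 library except Chrom3-5R replicate 2 (edgeR adjusted p 0.0511 to 0.144 over these). Nuclear pore and transport genes gave 0 calls of 44 by edgeR and 1 higher by DESeq2 and by limma, with 1 higher and 4 lower at an unadjusted p below 0.05 and changes of -0.14 to 0.23. Orthologs of human ALS and FTD genes gave 0 of 22 by all 3 tools, with 1 lower at that unadjusted p and changes of -0.16 to 0.09. Cytosolic ribosomal protein genes gave 0 of 87 by all 3 tools, with 1 higher and 1 lower at that unadjusted p. Of these, 80 had a change below 0, with a median of -0.06.

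Stress and immune genes gave few calls. Heat shock proteins and chaperones gave 0 of 34 by edgeR, 2 higher by DESeq2 and 1 higher by limma (median 0.12; 5 higher and 1 lower at an unadjusted p below 0.05). Of the 34, 25 had a change above 0 and 9 below, and all 12 small heat shock proteins were above. Oxidative stress genes and metallothioneins gave 0 of 27 by edgeR and DESeq2 and 1 lower by limma, with 1 higher and 2 lower at that unadjusted p. Turandot and JAK-STAT genes gave 0 of 13 by edgeR and limma and 1 lower by DESeq2, with 2 higher and 1 lower at that unadjusted p. Of 69 antimicrobial peptide, Toll and Imd genes, 1 rose and 0 fell by edgeR (1.45%; median -0.03). The rise was CG16836, now BomT2, a Toll-induced Bomanin peptide, with 33.8, 25.7, 34.6 and 27.8 CPM in Chrom3-160R, against 18.8, 24.6, 19.9 and 24 CPM in Chrom3-5R (0.48 ± 0.11, edgeR adjusted p = 0.033). Its groups only just lay apart, and the call ended without Chrom3-5R replicate 1 or 3 or Chrom3-160R replicate 1 or 3 (edgeR adjusted p 0.0743 to 0.13). Of 31 cell death and DNA damage genes, Damm, a caspase, was lower (-0.93 ± 0.23), and its call ended without any 1 of the 8 libraries (edgeR adjusted p 0.0718 to 0.172). Damm overlaps another gene and was low, at 0.385 CPM in Chrom3-160R and 0.733 CPM in Chrom3-5R on average. Of 30 autophagy and lysosome genes 1 rose, Pi3K59F, the class III phosphoinositide kinase Vps34, with 58.5, 62.2, 60 and 56.5 CPM in Chrom3-160R, against 48.2, 50.9, 51.1 and 53.4 CPM in Chrom3-5R (0.22 ± 0.04, edgeR adjusted p = 0.0081). The Pi3K59F call ended when the replicate number was fitted as a block within each line (edgeR adjusted p = 0.0561). Subunits of the vacuolar ATPase, the proton pump of lysosomes, rose in 2 of 28 and fell in 0 by edgeR (7.14%; median 0.11). These were Vha36-1 (0.2 ± 0.05) and Vha44 (0.15 ± 0.03). Of the 28 subunits, 25 had a change above 0 and 3 below. At an unadjusted p below 0.05, 9 were higher and 1 lower (35.7%, against 14.7% of all genes). The Vha36-1 call ended without Chrom3-5R replicate 1 or 3 or Chrom3-160R replicate 2, 3 or 4, and the Vha44 call without Chrom3-5R replicate 3 or 4 or the same 3 Chrom3-160R libraries (edgeR adjusted p 0.0588 to 0.13 over these).

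Markers of the head's cell types were present in all 8 libraries, and the summed levels of the glial and the fat body markers did not overlap between the groups, although single markers within both sums did. Summed over elav, nSyb and brp, neuronal markers were at 1630 to 1740 CPM in Chrom3-160R and 1720 to 1810 CPM in Chrom3-5R. Photoreceptor markers (ninaE, norpA, chp) were at 6440 to 6850 CPM in Chrom3-160R and 6530 to 7010 CPM in Chrom3-5R. Glial markers (repo, alrm, moody) were at 293 to 314 CPM in Chrom3-160R and 260 to 279 CPM in Chrom3-5R. The groups overlapped for neurons and photoreceptors and lay apart for glia through alrm. repo (91.7 to 102 CPM in Chrom3-160R, 88.6 to 96.4 CPM in Chrom3-5R) and moody (77.9 to 84.9 CPM in Chrom3-160R, 78.1 to 80.9 CPM in Chrom3-5R) overlapped, and the astrocyte gene alrm was higher (0.31 ± 0.08, edgeR adjusted p = 0.047). The call of alrm ended without Chrom3-5R replicate 1 or 3 or Chrom3-160R replicate 2, 3 or 4 (edgeR adjusted p 0.0977 to 0.167), and Fur1, which overlaps it, has 5.04 times its counts. Of 22 glial genes 1 was called higher (median 0.08), and 8 were higher and 0 lower at an unadjusted p below 0.05. Of 45 photoreceptor genes 1 was called by edgeR, rdgC (0.14 ± 0.03, edgeR adjusted p = 0.042), a phosphatase of rhodopsin, and its call ended without any 1 of the 8 libraries (0.0886 to 0.173). Of the 45, 31 had a change above 0 and 14 below (median 0.06). At an unadjusted p below 0.05, 11 were higher and 1 lower (26.7%, against 14.7% of all genes). DESeq2 called 5 higher and limma 4 higher.

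Fat body markers (Rfabg, Lsp2, Fbp1) summed to 7120 to 8040 CPM in Chrom3-160R and 9110 to 10200 CPM in Chrom3-5R, and the groups lay apart. Rfabg, the precursor of the apolipophorins that carry lipid in the blood, had 7400, 6780, 7050 and 6960 CPM in Chrom3-160R, against 8570, 8230, 8730 and 8200 CPM in Chrom3-5R (-0.26 ± 0.06, edgeR adjusted p = 0.033). The Rfabg call ended without any 1 library except Chrom3-5R replicate 2 and Chrom3-160R replicate 1 (edgeR adjusted p 0.0558 to 0.111). Lsp2, a storage protein, had 640, 341, 220 and 618 CPM in Chrom3-160R, against 1030, 1970, 1260 and 916 CPM in Chrom3-5R. The groups did not overlap, but the spread was wide and the change of -1.51 ± 0.63 was not called (edgeR adjusted p = 0.29). Fbp1, a receptor for storage protein, went the other way, with 0.764, 0.429, 0.201 and 14.3 CPM in Chrom3-160R, against 0.242, 0.319, 0.365 and 0.27 CPM in Chrom3-5R. Chrom3-160R replicate 4 was far above all the others, the groups overlapped, and the change of 3.71 ± 1.48 was not called (edgeR adjusted p = 0.26). Of 38 fat body genes Rfabg was the 1 called, and 3 were higher and 7 lower at an unadjusted p below 0.05. The median was -0.08 over the list, with 14 above 0, and 0.02 over its 13 lipoproteins and storage proteins. The falls in detoxification genes, Npc2g, Npc2h and CCHa2 were seen in the same libraries as the lower fat body marker sum, and its part in them was not tested. Blood cell markers (Hml, NimC1, Pxn) were at 612 to 689 CPM in Chrom3-160R and 672 to 740 CPM in Chrom3-5R. Of 16 gut genes tested, Amy-d was lower (-0.64 ± 0.14, edgeR adjusted p = 0.033), a call that ended without Chrom3-5R replicate 2 or 3 or Chrom3-160R replicate 2, 3 or 4 (0.0562 to 0.107).

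Muscle markers varied widely within both groups. Muscle markers (Mhc, Act88F, up) summed to 1610, 2210, 2100 and 2900 CPM in Chrom3-160R, against 1530, 2020, 1510 and 1600 CPM in Chrom3-5R. The highest library of each group was the one that stood away in the principal component analysis, Chrom3-160R replicate 4 and Chrom3-5R replicate 2. Of 33 muscle genes 0 were called by edgeR, DESeq2 or limma, although their median change was 0.29 and 7 were higher and 0 lower at an unadjusted p below 0.05. Markers of the male tract, testis and yolk were each at 5.96 CPM or below in every library.

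Several of the steepest changes lay in genes that overlap a more abundant gene or that are very low, and they were noted after their values were seen. CG10943 (3L, 12861717 to 12862920), which overlaps no gene, had 0.115, 0.0195, 0.0402 and 0.0 CPM in Chrom3-160R, against 0.808, 1.06, 0.777 and 0.847 CPM in Chrom3-5R (-4.2 ± 0.43, edgeR adjusted p = 1.7e-05). Both chromosome 2 groups were as low as Chrom3-160R, at 0.0511 CPM in Chrom2-160R and 0.0522 CPM in Chrom2-5R. otu, a deubiquitinase of the ovary, changed by -3.02 ± 0.3 but lies in CG33181, which has 86.95 times its counts. Unc-115b (-2.94 ± 0.19) and p24-2 (-2.9 ± 0.19) share nearly 1 span and are young duplicates of Unc-115a and eca, so their reads may be split between copies. On chromosome 2 they changed by 2.54 ± 0.23 and 2.46 ± 0.23, at 3.4 CPM for Unc-115b in Chrom2-160R and 0.558 CPM in Chrom2-5R, against 0.458 CPM in Chrom3-160R and 3.55 CPM in Chrom3-5R. CG31683 fell in both lines (-2.72 ± 0.28 on chromosome 3 and -3.48 ± 0.32 on chromosome 2), but CG31688, which overlaps it, has 111.63 times its counts. CG15696, which overlaps no gene, rose by 2.33 ± 0.3 (0.759 CPM in Chrom3-160R and 0.146 CPM in Chrom3-5R on average). CG34215 rose by 1.26 ± 0.12 on chromosome 3 and changed by -1.01 ± 0.13 on chromosome 2, with CG15236 at 6.43 times its counts. CG8870 changed by -1.34 ± 0.11 on chromosome 3 and 0.73 ± 0.13 on chromosome 2, with mRpS21 at 1.86 times its counts.

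The genes called were spread over all major chromosome arms. Called were 67 of 2475 genes tested on 2L (2.71%), 82 of 2806 on 2R (2.92%), 32 of 2687 on 3L (1.19%), 83 of 3287 on 3R (2.53%), 19 of 2100 on the X (0.905%) and 2 of 105 on chromosome 4. Changes of at least 2-fold were counted in 18 genes of 3R, 11 of 2L, 9 of 2R, 4 of 3L and 1 of the X. The arm of the insertion is not given in the labels. Of the genes called, 25 pairs were direct neighbours on a chromosome, and in 23 of these pairs both changed in the same direction. Some pairs share a gene, such as TwdlV, and members such as CG4725 and CG4723 lie within more abundant genes. Of the 285 genes called, 194 were lower. The share of such pairs among all genes tested was not taken, so the count has no baseline.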

How the data were processed

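Per the labels, RNA from male fly heads was sequenced in 16 libraries, 4 in each of Chrom3-160R, Chrom3-5R, Chrom2-160R and Chrom2-5R. The deposited values are raw counts of reads for each gene, whole numbers taken over each gene's whole span with introns. The submitters' processing notes name Trimmomatic, STAR, bedtools, DESeq and the builds BDGP6 and mm10. Their versions, settings and roles, and the use of mm10, are not given in the sources here. Gene positions in the files are on BDGP6 and are printed from 1. Of the 17558 gene IDs, 17252 matched fly annotation release 115, 16977 with identical start and end. Symbols are those of the files, and newer names come from that release. No sequence is printed, since no sequence table was at hand.

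The counts were tested with edgeR 4.0.16 (R 4.3.3, limma 3.58.1). Low genes were removed with filterByExpr, libraries were scaled by TMM, and the 16 libraries were fitted as 4 group means, with dispersions from the robust quasi-likelihood method (biological coefficient of variation 0.106). The contrasts were Chrom3-160R minus Chrom3-5R, Chrom2-160R minus Chrom2-5R, and the first minus the second. Calls were made where p, adjusted by Benjamini-Hochberg across all 13525 tested genes, was below 0.05. "Rose" and "fell" are used of called genes. SE is the change over the square root of the F statistic. Between libraries of 1 chromosome 3 group, chi-square per degree of freedom was 7.01 to 29.53, far above sampling noise, and each library was kept as its own sample.

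The main fit did not pair samples by replicate number. Same-numbered Chrom3-160R and Chrom3-5R libraries correlated in their deviations from the group means at 0.063, -0.144, -0.312 and -0.258. Libraries that stand away weigh on such correlations, so these cannot exclude a batch shared by number. Genes named singly are the 12 largest rises and the 12 largest falls among called genes that overlap no other gene, with a mean of at least 1 CPM in a group and groups that do not overlap, and the 5 most abundant of each direction that changed by at least 0.32 on the log2 scale. Of each gene list up to 4 called members per direction are named. Others are said to be chosen after their values were seen. The comparison, the members and the gene lists were chosen with earlier results of these data known. List counts are set beside those of all genes and were not tested. DESeq2 1.42.0, limma-voom, other filters and scalings, single libraries left out and a fit of the 8 libraries alone were alternatives.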

Additional observations from a re-analysis of the deposited data

Results flagged for a closer look

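For 59 of the 123 named genes, the 160R change on chromosome 3 differed from that on chromosome 2 by a contrast in the same fit (edgeR adjusted p below 0.05). Over all genes tested the share was 7.27%. The named genes were chosen among those called for their chromosome 3 change, which is part of the contrast, so their share is no test. The values here are the chromosome 3 change minus the chromosome 2 change on the log2 scale. Among the rises on chromosome 3, the difference was 3.7 for Cyp28d2, 3.76 for Ir92a, 2.37 for Obp99a, 1.39 for CG6280, 1.74 for CG31205, 0.86 for Dhc98D, 0.63 for OdsH and 0.54 for CG2121, and it was -0.69 for Cpr72Ec, which rose more on chromosome 2. Further rises with a difference were CG34215 (2.28), CG15696 (2.11), Cyp4p2 (0.92), phr (0.89), ea (0.62), trbl (0.59), lectin-46Cb (0.57), CDase (0.47), Idgf3 (0.38) and Pi3K59F (0.22). CR44043, a non-coding RNA gene within l(2)41Ab, rose more on chromosome 2 (-1.71).

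Among the falls on chromosome 3, the difference was -3.39 for CG14238, -1.99 for hkb, -3.04 for TwdlV, -1.86 for CG14644, -1.57 for Or82a, -0.75 for CG42876, -1.98 for CG43050, -2.68 for CG8757, -1.56 for CG13646 and -2.32 for CG12164. It was -1.92 for Cyp9c1, -1.91 for CR43787, -1.67 for Obp93a, -1.41 for CR44138 and -0.55 for CG30438. It was -0.47 for CCHa2, -0.33 for ITP, -0.47 for nAChRalpha6, -0.34 for bru-3, -0.25 for TkR99D and -0.39 for Obp57a. In genes noted after their values were seen it was -4.07 for CG10943, -3.57 for otu, -5.48 for Unc-115b, -5.36 for p24-2, -2.08 for CG8870, -0.59 for EDTP, -0.38 for Ndae1, -0.29 for Parp, -0.36 for Tsc1 and -0.25 for pelo. Another 8 genes fell more on chromosome 2, namely Cyp9b2 (0.43), Jheh1 (0.67), Jheh2 (0.35), Npc2h (0.48), GstE9 (0.47), Rfabg (0.4), CG14528 (0.52) and Gel (0.41).

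In 8 of the 246 groups of 4 libraries checked, 1 library stood away from the other 3 by Dixon's criterion, which uses the gap to the nearest library as a share of the group's range. Chance gives about 1 in 20. In Chrom3-160R these were rdgC in replicate 2, the lowest (a gap of 0.855 of the range), and Parp in replicate 4, the lowest (0.865). In Chrom3-5R they were Cyp28d2 in replicate 3, the highest (0.865), CG4725 in replicate 3, the highest (0.961), Obp99a in replicate 1, the lowest (0.9), Cyp6a14 in replicate 2, the lowest (0.89), Npc2h in replicate 4, the lowest (0.916), and OstDelta in replicate 4, the lowest (0.933).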

How the results depend on the processing

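The count of 285 genes called with the chromosome 3 insertion was 288 with RLE size factors, 270 with no filter on low counts and 281 with a stricter filter. It was 368 from the 8 chromosome 3 libraries alone and 144 among genes that overlap no other, tested alone. DESeq2 called 531 (209 higher, 322 lower) and limma-voom 434 (157 higher, 277 lower), which hold 285 and 284 of the 285. Requiring a change of at least 1.5-fold left 96. With 1 library left out, the count was 167 to 337, lowest without Chrom3-5R replicate 3 (167), Chrom3-160R replicate 3 (170), Chrom3-5R replicate 1 (176) and Chrom3-160R replicate 2 (181). Without both Chrom3-5R replicate 2 and Chrom3-160R replicate 4, chosen after the data were seen because they stood away, it was 212. With the replicate number as a block within each line it was 207. Every correlation of same-numbered chromosome 3 libraries was below 0.1, which does not exclude a batch shared by number. The count of genes whose change differed between the lines was 983. It was 557 with the replicate block and 597 to 1001 with 1 library left out, lowest without Chrom3-5R replicate 1 (597), Chrom3-160R replicate 2 (625) and Chrom3-160R replicate 1 (636). The cause of these shifts was not tested, apart from fewer libraries or genes where these were left out.

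Of 123 named calls, 64 held under each of the 17 alternatives in which the gene was tested, and no direction changed (0 of 2033 values). Genes that overlap another were left out of the fit of non-overlapping genes. Genes that a stricter filter removed were left out of that fit. Calls ended without at least 1 single library in 56, without both libraries that stood away in 41, with the replicate block in 34 (among them Cyp28d1 and Pi3K59F, edgeR adjusted p = 0.0866 and 0.0561), in a fit of the 8 libraries alone in 16, with no filter in 9, among non-overlapping genes alone in 3, with the stricter filter in 2 and with limma-voom or RLE factors in 1 each. The median of a gene list moved beyond its spread in 78 of 1003 values over 59 lists. At these depths a gene under 1 CPM rests on few counts, and reads of overlapping genes cannot be parted.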

Other observations

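The single protein-coding genes described next were picked after their values were seen. The 2 photolyase genes, whose enzymes repair ultraviolet damage to DNA with light, moved in opposite directions. phr had 7.93, 8.88, 8.7 and 6.43 CPM in Chrom3-160R, against 4.4, 4.41, 5.89 and 3.73 CPM in Chrom3-5R (0.8 ± 0.11, edgeR adjusted p = 0.00057). phr6-4 had 0.802, 0.37, 0.543 and 0.363 CPM in Chrom3-160R, against 1.41, 1.09, 1.58 and 1.32 CPM in Chrom3-5R (-1.36 ± 0.23, edgeR adjusted p = 0.0025). The groups lay apart in both, and on chromosome 2 phr changed by -0.09 ± 0.11 and phr6-4 by -1.67 ± 0.28. Among secreted proteins, ea, the protease that activates the Toll ligand in the embryo, had 17.9, 18.7, 16.7 and 16 CPM in Chrom3-160R, against 11.1, 12.2, 12.4 and 13 CPM in Chrom3-5R (0.51 ± 0.07, edgeR adjusted p = 0.00027). Idgf3, a chitinase-like growth factor, rose by 0.26 ± 0.05, CDase, a neutral ceramidase, by 0.24 ± 0.05 and the kinase-like regulator trbl by 0.35 ± 0.08 (edgeR adjusted p = 0.0093, 0.013 and 0.017). On chromosome 2 all of the last 4 changed by -0.11 to -0.24. The CDase call ended without Chrom3-5R replicate 1 (edgeR adjusted p = 0.0583) and the trbl call without Chrom3-5R replicate 1 or 4 or Chrom3-160R replicate 2 (0.0619 to 0.07).

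Among signalling and housekeeping genes that fell, Tsc1, which restrains the TOR kinase, had 21.3, 22.7, 23.2 and 22.8 CPM in Chrom3-160R, against 28.8, 25.9, 31.7 and 28.7 CPM in Chrom3-5R (-0.36 ± 0.06, edgeR adjusted p = 0.0018). Ndae1, an exchanger of sodium and anions, had 216, 209, 200 and 186 CPM in Chrom3-160R, against 249, 253, 255 and 258 CPM in Chrom3-5R (-0.32 ± 0.04, edgeR adjusted p = 0.00012). pelo, which rescues stalled ribosomes, had 54.6, 50.8, 52.2 and 54.6 CPM in Chrom3-160R, against 63.3, 61.6, 60.6 and 60.5 CPM in Chrom3-5R (-0.21 ± 0.04, edgeR adjusted p = 0.0053). All 3 had groups that did not overlap, and on chromosome 2 they changed by 0.01, 0.06 and 0.04. Parp changed by -0.25 ± 0.06, Egfr by -0.22 ± 0.05 and the cathepsin gene CG4847 by -0.31 ± 0.06 (edgeR adjusted p = 0.034, 0.016 and 0.011). The Parp call ended without any 1 library except Chrom3-5R replicate 2 and Chrom3-160R replicate 1 (edgeR adjusted p 0.0768 to 0.13), the Egfr call without Chrom3-5R replicate 3 or Chrom3-160R replicate 2 or 3 (0.0669 to 0.0793) and the CG4847 call without Chrom3-160R replicate 3 (0.0518).

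Non-coding genes of the CR series were called in 8 higher and 14 lower cases of 1304 tested (1.69%, against 2.11% of all genes). CR40190, which the annotation calls a pseudogene, overlaps no gene and had 7.59, 7.21, 7.09 and 6.55 CPM in Chrom3-160R, against 5.39, 4.71, 4.13 and 5.07 CPM in Chrom3-5R (0.56 ± 0.12, edgeR adjusted p = 0.014), a call that ended without Chrom3-5R replicate 3 (0.0757). CR44043 rose by 1.23 ± 0.13 within l(2)41Ab, which has 33.83 times its counts. The microRNA gene mir-2279 changed by -0.61 inside MFS17, which has 312.42 times its counts, and snoRNA:Psi18S-525c by -0.74 inside Arpc2, which has 28.48 times its counts. Without Chrom3-5R replicate 4 the mir-2279 call ended (edgeR adjusted p = 0.0566), and the snoRNA:Psi18S-525c call ended without any 1 library except Chrom3-5R replicates 1 and 2 (0.0699 to 0.152).

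Further called members of gene lists were single cases. AGO3, a PIWI protein of the germline piRNA pathway, was the 1 called of 24 small RNA pathway genes, with 93.2, 81.0, 82.8 and 86.7 CPM in Chrom3-160R, against 110, 89.5, 113 and 100 CPM in Chrom3-5R (-0.26 ± 0.07, edgeR adjusted p = 0.049). Its groups overlapped, and the call ended without any 1 library except Chrom3-5R replicate 2 and Chrom3-160R replicate 1 (0.0914 to 0.189). Of 73 mitochondrial ribosomal protein genes, mRpL39 rose (0.28 ± 0.05, edgeR adjusted p = 0.0053), and Zip71B, which overlaps it, has 1.03 times its counts. Of 6 histone genes tested, His2B:CG33868 fell (-0.57 ± 0.12, edgeR adjusted p = 0.013), a call that ended without Chrom3-160R replicate 3 (0.0568). Of 30 seminal fluid protein genes, Sfp33A3 fell (-0.76 ± 0.18, edgeR adjusted p = 0.037), but it lies in Pde1c, which has 936.54 times its counts, and the call ended without any 1 library except Chrom3-5R replicate 2 (0.0541 to 0.142). Among other CR genes, CR44525 rose by 0.9 ± 0.23 and CR44645 by 0.57 ± 0.12, and CR45746 changed by -1.23 ± 0.29 (edgeR adjusted p = 0.049, 0.013 and 0.034). The CR44525 call ended without any 1 library except Chrom3-5R replicate 2 and Chrom3-160R replicate 1 (0.0864 to 0.171), the CR44645 call without Chrom3-5R replicate 3 or Chrom3-160R replicate 4 (0.0516 to 0.0524), and the CR45746 call without any except Chrom3-5R replicate 1 and Chrom3-160R replicate 1 (0.0634 to 0.123).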
